A study of Mus musculus with 10 samples.

Results

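At 1669 genomic regions of mouse pre-iPSCs, tagged Nanog had a peak whether or not Sin3a was supplied as a transgene, and Sin3a had a peak in the line that carried Nanog and Sin3a together but not in the line that carried Sin3a alone. Pre-iPSCs are partly reprogrammed cells, here made from female neural stem cells of strain 129/MF1 with an Oct4-GFP-IRES-puro reporter and kept in serum and LIF. All lines had been stably transfected with PiggyBac-CAG transposon vectors under hygromycin and blasticidin selection. The line called Sin3a here carried Sin3a and an empty vector (EV), the Nanog line carried Nanog (FLAG) and the empty vector, and the Nanog + Sin3a line carried Nanog (FLAG) and Sin3a. A Sin3a antibody was used on chromatin of the Sin3a line and the Nanog + Sin3a line, and a FLAG antibody on that of the Nanog line and the Nanog + Sin3a line. Each of these 4 groups had 2 replicates but 1 deposited peak list. It is not stated in the labels whether a line was 1 clone or a pool.

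The regions were chosen by the presence of peaks. Peaks of the 4 lists that shared 1 base or more were merged, which gave 45707 regions on mouse build mm9, and a region was kept when it held a FLAG peak of both lines, Sin3a called in the Nanog + Sin3a line and no Sin3a peak of the Sin3a line. The 1669 regions kept were 3.65% of all merged regions (95% Wilson interval 3.48 to 3.83%). Since peak strength decides whether a peak is listed, the strength of Sin3a and FLAG at these regions is given as a description, with no test. Chromosomal position was not used by the rule. Distances between summits, containment of peaks and gaps to other Sin3a peaks were partly fixed by it, since merged peaks share bases and a region may not touch a Sin3a peak of the Sin3a line, so their comparisons with other classes are descriptions too. Intervals throughout are 95% intervals over regions or fragments. They cover counting error only, because the lists hold no values for single replicates, and the spread between replicates is therefore unknown.

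Nanog is a homeodomain transcription factor of the pluripotency network, and it binds both active and silent genes in pluripotent cells. Sin3a does not bind DNA by itself. It is a scaffold that is brought to chromatin by transcription factors and holds the histone deacetylases Hdac1 and Hdac2 with several accessory subunits, which remove acetyl groups from histones. Sin3a complexes are known at both repressed and active genes, and they are commonly found at promoters. Nanog was not profiled in the Sin3a line, nor Sin3a in the Nanog line. FLAG and Sin3a were precipitated in separate experiments, so binding of both to the same DNA molecule was not shown.

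Of the 27050 regions with FLAG peaks of both lines, 6.17% (5.89 to 6.46%) had Sin3a only in the Nanog + Sin3a line. Sin3a was present in both lines at 43.5% of these regions and in neither at 45.5%. The opposite class, with Sin3a only in the Sin3a line, held 1314 regions (4.86%). Of the 13430 FLAG regions with a Sin3a peak when Nanog was supplied too, 12.4% (11.9 to 13.0%) lacked one in the Sin3a line. In the opposite direction 10.0% (9.55 to 10.6%) of 13075 regions lacked one in the Nanog + Sin3a line. The 1669 regions were thus 56% (54.2 to 57.7%) of the 2983 at which the Sin3a lists disagreed. This excess was not seen with equal numbers of top peaks, where the share was 47.4% (45.6 to 49.2%) and the opposite class was larger. Of the Sin3a lists, only that of the Nanog + Sin3a line was shortened there, from 18231 to 17168 peaks. Such a cut lowers the share by construction. The share was 50.7% when peaks were matched by summits within 200 bp, and 48.7 and 42.7% among peaks with a −log10 q, the adjusted significance of a summit, of at least 5 and 10. A cut at 5 removed 22.9% of all Sin3a peaks of the Nanog + Sin3a line and 19.1% of those of the Sin3a line, so it did not act equally on the lists.

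Sin3a was weak at most of the 1669 regions. The authors' fold enrichment at the summit is the ChIP signal over the background expected from the control. For Sin3a in the Nanog + Sin3a line it had a lowest value of 1.42, a median of 3.61 and a highest of 8.84. The median over all Sin3a peaks of that line was 4.63, and it was 5.51 at regions of all 4 lists. The deposited −log10 q had a median of 4.92, against 13.4 at regions of all 4 lists, and was under 5 at 56.6% of the regions and at least 10 at 4.67%. Over all Sin3a peaks of that line it was under 5 at 22.9%. The number of Sin3a fragments over the summit, recovered from the fold and p-value, was known for 1575 regions, with a median of 29 and quartiles of 26 and 33. At the lowest background level the fewest fragments that gave a listed peak were 20 in this list and 23 in that of the Sin3a line.

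The opposite class was about as weak. Its Sin3a peaks, in the Sin3a line, had a median fold of 3.54 and a median −log10 q of 4.93, with quartiles of 3.81 and 6.97. That −log10 q was under 5 at 50.2% of the regions of the class and at least 10 at 7.31%. Absence from the other line became rare as the Sin3a peak grew stronger, and it did so in both directions. Among FLAG regions whose Sin3a peak in the Nanog + Sin3a line had a −log10 q below 2.5, 53.0% (46.6 to 59.2%) lacked Sin3a in the Sin3a line. The share was 25.3% (23.4 to 27.4%) from 5 to 7.5, 2.71% (2.14 to 3.42%) from 10 to 15, and 9 of 3056 regions from 15 to 25. At 25 or more it was 1 of 2206. In the opposite direction the shares were 41.9%, 22.1%, 3.45% and 0.635% in the same ranges, and 0 of 2798 at 25 or more, which allows a share of up to 0.107% taken as 3 counts of the total (Wilson upper limit 0.137%).

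**Figure D1:**
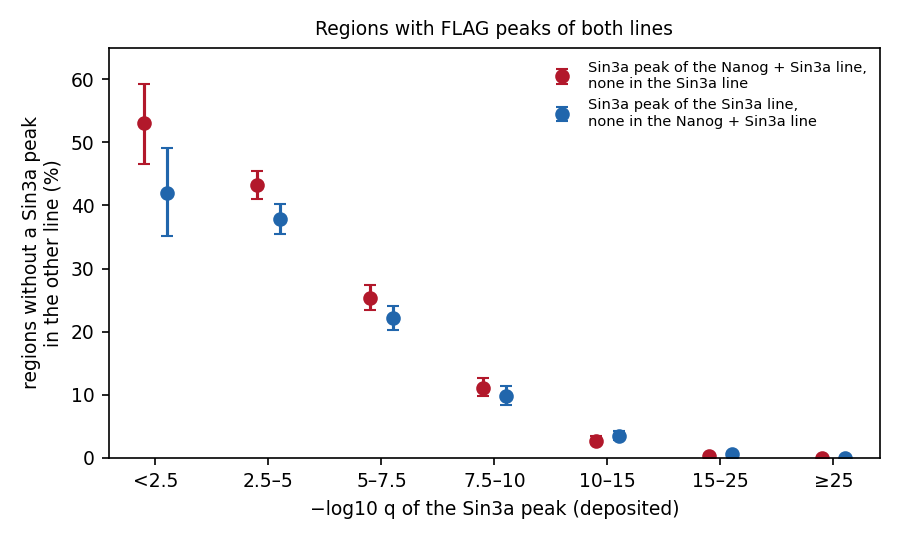
Share of regions with FLAG peaks of both lines that lacked a Sin3a peak in the other line, by the deposited −log10 q of the Sin3a peak that was present. Points are shares and bars 95% Wilson intervals; from 53.0% in the weakest bin, the share for the Nanog + Sin3a line falls below 3% from a −log10 q of 10.

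The regions just inside the rule showed how close the threshold was. The lowest Sin3a −log10 q among the 1669 regions was 1.38, shared by regions on chromosome 1 at 167701679-167702009 and on chromosome 16 at 3846972-3847407 and 37790323-37791474. Each had a Sin3a fold of 2.26 over 28 fragments. The corresponding FLAG folds in the Nanog line were 3.58, 4.30 and 5.98. The same −log10 q was found on chromosome 7 at 80752816-80753664, where the Sin3a fold was 2.57 over 22 fragments. Just outside were regions that also had a weak Sin3a peak in the Sin3a line. On chromosome 12 at 103968002-103969974 that peak reached a fold of 2.13 with a −log10 q of 1.32, beside a fold of 4.25 in the Nanog + Sin3a line, and on chromosome 15 at 31497946-31498896 it reached a fold of 1.99 with a −log10 q of 1.33, beside a fold of 3.58. Signal below the threshold is not part of a peak list, so its level in the Sin3a line at the 1669 regions was not analysed here.

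A few of the regions carried clear Sin3a peaks. The 12 with the highest Sin3a −log10 q had folds from 5.83 to 8.84. The strongest was a narrow site of 309 bp on chromosome 6 at 47974741-47975049. Its Sin3a fold was 8.84 over 68 fragments (Poisson interval 53 to 86), and its −log10 q of 30.4 was the only one above 25. FLAG was moderate there, with a fold of 5.06 for Nanog alone and 5.25 in the Nanog + Sin3a line. The Sin3a and FLAG summits of the Nanog + Sin3a line lay 4 bp apart, and the nearest Sin3a peak of the Sin3a line was 22258 bp away.

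The second region, on chromosome 6 at 128291742-128292767, had a Sin3a fold of 7.31 and FLAG folds of 5.36 (Nanog line) and 8.58 (Nanog + Sin3a line). FLAG was 0.68 higher there on the log2 scale in the line with added Sin3a. The third, on chromosome 5 at 31218334-31218723, had a Sin3a fold of 6.80 beside FLAG folds of 4.50 and 5.29. The fourth, on chromosome 1 at 63246639-63247088, had a Sin3a fold of 5.88 and the weakest FLAG of the 12, with folds of 3.35 and 4.55. At these 4 regions FLAG was the higher in the Nanog + Sin3a line, by 0.053 to 0.68 on the log2 scale.

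Of the remaining 8, 5 lay on distal chromosome 6. Their Sin3a folds were 6.42 at 128235630-128236298, 6.16 at 127097647-127098299, 5.83 at 128264418-128265435, 6.04 at 129014402-129014920 and 5.91 at 127298849-127299360. FLAG at the fourth of these was the strongest of the 12, with folds of 10.6 and 10.8, and at the last the FLAG folds were 4.14 and 6.26. At the first 3 the FLAG fold was lower in the Nanog + Sin3a line, at 6.12, 6.01 and 7.02 against 8.08, 7.65 and 8.57 in the Nanog line. The other 3 lay on chromosome 12 at 82119559-82120936, chromosome 4 at 128953683-128954127 and chromosome 15 at 3946242-3946925, with Sin3a folds of 6.04, 6.04 and 5.91. Their FLAG folds were 6.36, 7.96 and 8.87 in the Nanog line, each above the 5.29, 6.01 and 7.91 of the other line. On chromosome 12 the Sin3a and FLAG summits were 922 bp apart, within a region of 1378 bp. In all, 6 of the 12 had a lower FLAG fold in the Nanog + Sin3a line, and 8 of the 12 had the summits of both proteins within 100 bp in that line. For comparison, the strongest region of the opposite class, on chromosome 6 at 72166601-72166968, had a Sin3a fold of 7.37 in the Sin3a line and FLAG folds of 11.5 and 7.79. The next 3 of that class had Sin3a folds of 5.63 on chromosome 10 at 94453388-94454391, 6.93 on chromosome 3 at 51908039-51908994 and 5.64 on chromosome 1 at 157887710-157888226.

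**Figure D2:**
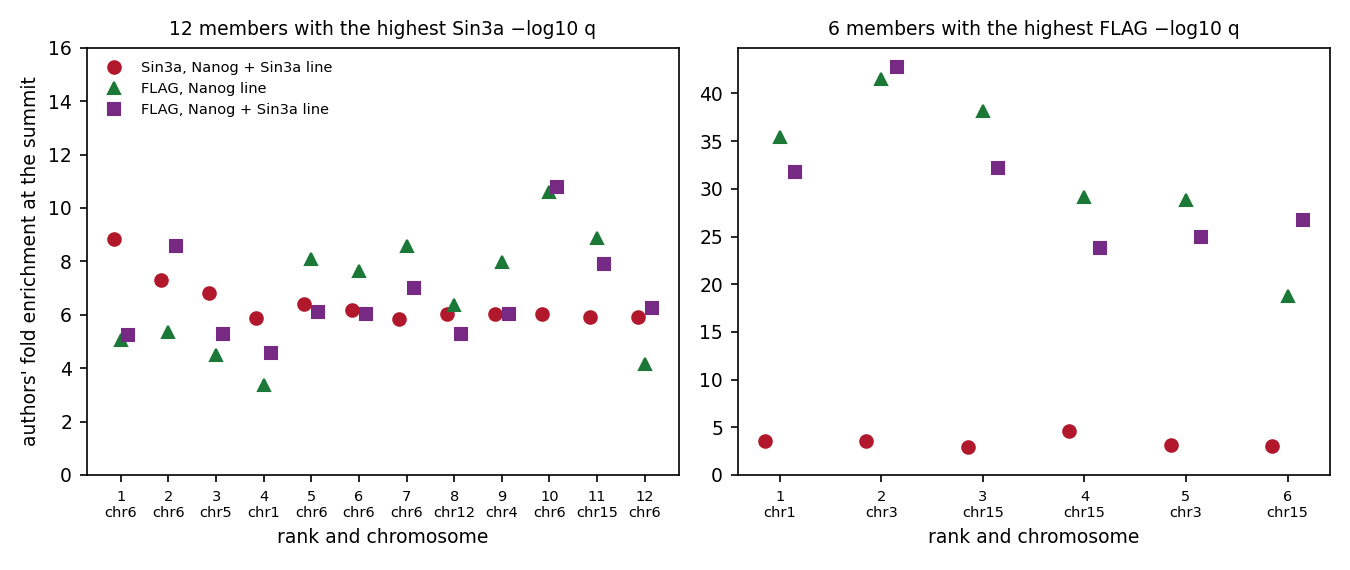
The authors' fold enrichment at the summit for Sin3a in the Nanog + Sin3a line (circles), FLAG in the Nanog line (triangles) and FLAG in the Nanog + Sin3a line (squares). Left, the 12 regions with the highest Sin3a −log10 q, where Sin3a folds run from 5.83 to 8.84; right, the 6 regions with the highest sum of FLAG −log10 q, where Sin3a folds run from 2.89 to 4.63 and FLAG folds from 18.8 to 42.8. Folds are relative to their own list.

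Nanog was moderately strong at the 1669 regions as a whole. The FLAG fold had a median of 5.42 in the Nanog line (quartiles 4.35 and 7.24), and with added Sin3a it was 4.87 (3.97 and 6.52). These medians lay between those of FLAG regions without Sin3a, 4.84 and 4.74, and those of regions of all 4 lists, 6.74 and 5.77. In the opposite class they were 5.52 and 4.87. A FLAG −log10 q of at least 25 in both lines was found at 14.3% of the regions, at 13.2% of the opposite class, at 9.60% of FLAG regions without Sin3a and at 22.3% of regions of all 4 lists.

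FLAG was somewhat lower in the line with added Sin3a, and the shift was similar in the opposite class. The log2 difference in FLAG fold, Nanog + Sin3a minus Nanog line, had a median of -0.13 (quartiles -0.34 and 0.085). It was -0.15 in the opposite class, -0.22 at regions of all 4 lists and -0.029 at FLAG regions without Sin3a. At 66.4% (64.1 to 68.7%) of the regions the fold was lower in the Nanog + Sin3a line, against 68.8% (66.2 to 71.2%) in the opposite class. The lists were scaled separately, so a negative value alone shows no loss of Nanog, and the values were read only beside those of the other classes.

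Some of the strongest Nanog sites of the series had Sin3a only in the Nanog + Sin3a line. On chromosome 3 at 133186984-133188417 the FLAG folds were 41.5 (Nanog line) and 42.8 (Nanog + Sin3a line). The Sin3a fold there was 3.61, with 27 fragments over the summit (18 to 39). On chromosome 1 at 134367337-134368231 the FLAG folds were 35.4 and 31.8, and Sin3a had a fold of 3.56. A region on chromosome 15 at 10653167-10653936 had FLAG folds of 38.2 and 32.2 and the weakest Sin3a of the 6 named by FLAG strength, with a fold of 2.89. The other 3 were on chromosome 15 at 77185466-77186357, chromosome 3 at 50497832-50499229 and chromosome 15 at 9064517-9065490. Their FLAG folds were 29.1, 28.8 and 18.8 in the Nanog line, against 23.8, 25 and 26.7 with added Sin3a. The Sin3a folds at the same sites were 4.63, 3.10 and 3.03. At these 6 sites the Sin3a −log10 q ran from 2.26 to 8.93, beside FLAG values of 124 to 330 in the Nanog line.

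Sin3a strength did not follow Nanog strength within the 1669 regions. Spearman's rho across regions between the Sin3a fold and the FLAG fold was 0.030 with FLAG of the Nanog line and 0.056 with that of the Nanog + Sin3a line. In the opposite class, with Sin3a of the Sin3a line, it was 0.113 and 0.091. It was 0.275 and 0.259 across the 11761 regions of all 4 lists, with Sin3a of the Nanog + Sin3a line. These points share libraries and control, and the range of Sin3a folds at the 1669 regions was narrow by construction. FLAG folds of the 2 lines followed each other, with a rho of 0.779.

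The share of Nanog sites with Sin3a only in the Nanog + Sin3a line was somewhat lower at stronger Nanog sites, as was that of the opposite class. FLAG regions were ranked by the −log10 q of the Nanog line's FLAG list and divided into 5 classes of equal size. From the weakest to the strongest class, the regions with Sin3a only in the Nanog + Sin3a line made up 6.52, 6.58, 6.75, 5.64 and 5.36% of 5410 each. The interval was 5.90 to 7.21% in the weakest and 4.79 to 5.99% in the strongest class. The opposite class made up 4.75% in the weakest and 4.03% in the strongest. The share with Sin3a in both lines went from 19.1 to 66.6% and that with Sin3a in neither from 69.6 to 24.0%. Ranked by the FLAG list of the Nanog + Sin3a line, regions with Sin3a only in that line made up 7.19% (6.53 to 7.91%) in the weakest class. In the strongest class they made up 5.19% (4.63 to 5.82%). The opposite class went from 5.80 to 3.90%. In that ranking Sin3a in both lines went from 27.1% in the weakest to 56.5% in the fourth class and was 52.3% in the strongest, and Sin3a in neither went from 59.9 to 34.1% and was 38.6% in the strongest.

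**Figure D3:**
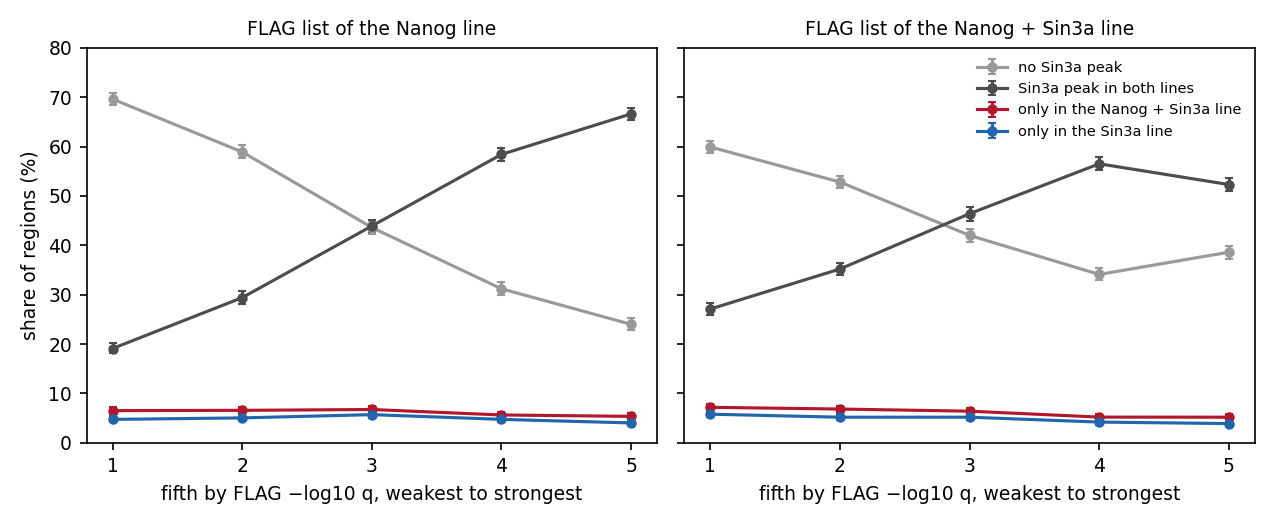
Share of the regions with FLAG peaks of both lines that had Sin3a in both lines, in neither, only in the Nanog + Sin3a line or only in the Sin3a line, by 5 classes of FLAG −log10 q in each FLAG list (5410 regions a class). Points are shares and bars 95% Wilson intervals; Sin3a only in the Nanog + Sin3a line stays between 5.19 and 7.19%.

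The regions were of intermediate width, with a median of 540 bp and a range of 216 to 2646 bp. The opposite class had a median of 518 bp, FLAG regions without Sin3a 394 bp and regions of all 4 lists 894 bp. The widest, on chromosome 8 at 26027765-26030410, had FLAG folds of 17.1 and 15.7 and a Sin3a peak of 223 bp with a fold of 3.74. The Sin3a peak was narrow, at a median of 275 bp beside FLAG peaks of 425 bp (Nanog line) and 393 bp (Nanog + Sin3a line). At 72.7% of the regions the Sin3a peak was narrower than the FLAG peak of the same line. The whole Sin3a peak lay inside that FLAG peak at 43.7% (41.4 to 46.1%), which was 24.1 points more than at regions of all 4 lists (21.6 to 26.6). The opposite class was alike in both respects, with a narrower Sin3a peak at 71.2% and a whole Sin3a peak inside the FLAG peak at 45.7% (43.1 to 48.4%).

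Sin3a and Nanog summits lay close together. In the Nanog + Sin3a line the median distance was 79 bp (quartiles 33 and 163), and the summit of Sin3a lay inside the FLAG peaks of both lines at 82.6% of the regions. Summits were within 100 bp at 59.7% (57.4 to 62.1%), 8.10 points more than at regions of all 4 lists (5.56 to 10.6) and 7.31 points fewer than in the opposite class (difference -10.7 to -3.83), where Sin3a was that of the Sin3a line. Widths differed between these classes, and distance was not separated from width. FLAG summits of the 2 lines were 38 bp apart at the median, which was 42 bp in the opposite class and 38 bp at regions of all 4 lists.

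The control background at the regions was like that of the whole list. It stood at the lowest level at 57.3% of the 1575 regions with a recovered value, against 57.4% of all Sin3a peaks of that line. At 3 regions it was at least 5 times the lowest level, and these are named here after their values were seen. On chromosome 11 at 3078873-3079640 the Sin3a fold was 1.42, the lowest of the 1669, over 208 fragments, and FLAG had folds of 2.02 in both lines. The others, on chromosome 8 at 19892462-19892878 and chromosome X at 166417412-166417824, had Sin3a folds of 2.18 and 2.05. All folds of Sin3a and FLAG at the 3 regions lay between 1.42 and 2.26.

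Many of the regions stood beside Sin3a peaks of the Sin3a line. The nearest such peak lay at a median gap of 9683 bp, and within 1 kb at 18.8% (17.0 to 20.7%) of the regions. Among all 13975 FLAG regions that had no Sin3a peak of the Sin3a line, 8.95% had one within 1 kb, and among those without Sin3a in either line 7.62%. The difference from the latter was 11.1 points (9.27 to 13.1). Within 10 kb the shares were 50.8% and 31.0%, a difference of 19.8 points (17.2 to 22.3). The opposite class stood about as close to Sin3a peaks of the Nanog + Sin3a line, with 16.3% within 1 kb, a difference of 2.47 points (-0.294 to 5.18), and 45.2% within 10 kb, a difference of 5.60 points (1.99 to 9.19).

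The closest cases missed a Sin3a peak of the Sin3a line by a few bases. On chromosome 3 at 68930843-68931183 the gap was 12 bp. On chromosome 10 at 114819833-114820949 it was 16 bp, with a Sin3a fold of 3.36 beside FLAG folds of 12.4 and 20.4. Within 200 bp there were 70 such regions (4.19%). Another region of the 1669 lay within 50 kb of 34.0% (31.8 to 36.3%) of them, and outside the segments of chromosome 6 described next this share was 31.1% (28.9 to 33.5%). Such a share grows with the number of regions in a class, so it was not compared between classes.

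**Figure D4:**
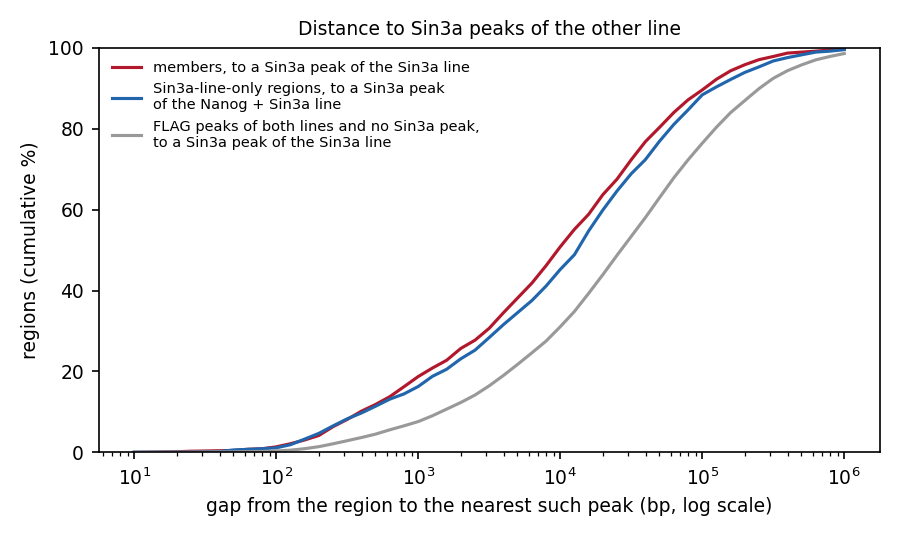
Cumulative share of regions by the gap to the nearest Sin3a peak of the other line (log scale). The 1669 regions reach 18.8% at 1 kb and 50.8% at 10 kb, and FLAG regions without Sin3a reach 7.62% and 31.0%.

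The regions were unevenly spread over the chromosomes. Chromosome 6 held 176 of them, 11.6% (10.1 to 13.3%) of its FLAG regions against 6.17% in the genome. Chromosome 15 followed with 8.55% (7.15 to 10.2%). The lowest shares were on chromosomes 19, 5 and 10, with 3.59, 3.96 and 4.13%. The opposite class was spread otherwise, with its highest shares on chromosomes 5 and 10, 8.04% (6.85 to 9.42%) and 7.20% (5.97 to 8.66%), and 3.16% on chromosome 15. Thus the 1669 regions were 73.0% of the disagreeing regions of chromosome 15, 72.4% of those of chromosome 6 and 33.0% (27.0 to 39.7%) of those of chromosome 5.

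The excess on chromosome 6 lay in segments of it that were known from earlier results of these data. The intervals do not allow for that choice. Between 120 and 130 Mb, 89 of 315 FLAG regions (28.3%, 23.6 to 33.5%) had Sin3a only in the Nanog + Sin3a line and 5 had it only in the Sin3a line. This segment held 5.33% of the 1669 regions and 0.381% of the opposite class, a difference of 4.95 points (3.85 to 6.16). Its part from 125 to 130 Mb, named after its values were seen, held 69 against 1. Between 50 and 56 Mb, 19 of 83 FLAG regions (22.9%, 15.2 to 33.0%) had Sin3a only in the Nanog + Sin3a line and 0 only in the Sin3a line, which allows a share of up to 3.61% taken as 3 counts of the total (Wilson upper limit 4.42%). On the rest of chromosome 6 the shares were 6.05% (4.80 to 7.60%) and 5.52% (4.33 to 7.01%). Of the 78 regions with a Sin3a −log10 q of at least 10, 15 lay between 120 and 130 Mb.

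Sin3a was also higher in the Nanog + Sin3a line at the neighbouring sites that had it in both lines. At the 113 regions of all 4 lists between 120 and 130 Mb, the log2 difference in Sin3a fold, Nanog + Sin3a minus Sin3a line, had a median of 0.26 (0.20 to 0.37), against -0.0085 over all such regions. FLAG did not differ in this way there: at FLAG regions without Sin3a the median log2 difference, Nanog + Sin3a minus Nanog line, was -0.0125 (-0.0935 to 0.056), beside -0.029 in the genome, and at the 89 regions themselves it was -0.099, beside -0.13 over all 1669. Between 50 and 56 Mb both antibodies were higher in the Nanog + Sin3a line, Sin3a by 0.34 (0.169 to 0.415) at 31 regions of all 4 lists and FLAG by 0.38 (0.26 to 0.53) at 33 FLAG regions without Sin3a. The Sin3a difference refers to the Sin3a line and the FLAG difference to the Nanog line. Both segments were known from earlier results of these data. The control depth inferred from the values was equal in every list, at 25.9 tags per kb. It was taken as the lowest background divided by the length of the shortest listed peak. The source line of the control is not known here. A change of Sin3a binding and a change of DNA copies, as a gain in 1 line or a loss in the other, cannot be told apart.

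The same held to a lesser degree across the genome. Over the 20 chromosomes, the share of disagreeing regions that had Sin3a only in the Nanog + Sin3a line went with the Sin3a difference at regions of all 4 lists, with a Spearman's rho of 0.823. That difference was -0.14 on chromosome 10, -0.11 on chromosome 5 and 0.12 on each of chromosomes 15 and 18. Over 244 windows of 5 Mb rho was 0.478, and 0.460 over the 241 windows left without those of both chromosome 6 segments. Both measures come from the same Sin3a lists, and their relation is a description. A window of chromosome 6 from 30 to 35 Mb, named after its values were seen, held 10 regions of the opposite class and 0 of the 1669. The Sin3a difference at its 17 regions of all 4 lists was -0.42. Not every window followed the relation. Chromosome 11 from 95 to 100 Mb, also named after its values were seen, held 25 of the 1669 regions and 10 of the opposite class. The Sin3a difference at its 100 regions of all 4 lists was -0.097. How far the level of Sin3a over a chromosome set the class of a single site was not tested. Without the segments of chromosome 6, 1561 regions were left, 5.86% (5.58 to 6.15%) of the FLAG regions there, and they were 54.4% (52.6 to 56.2%) of the disagreeing ones.

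**Figure D5:**
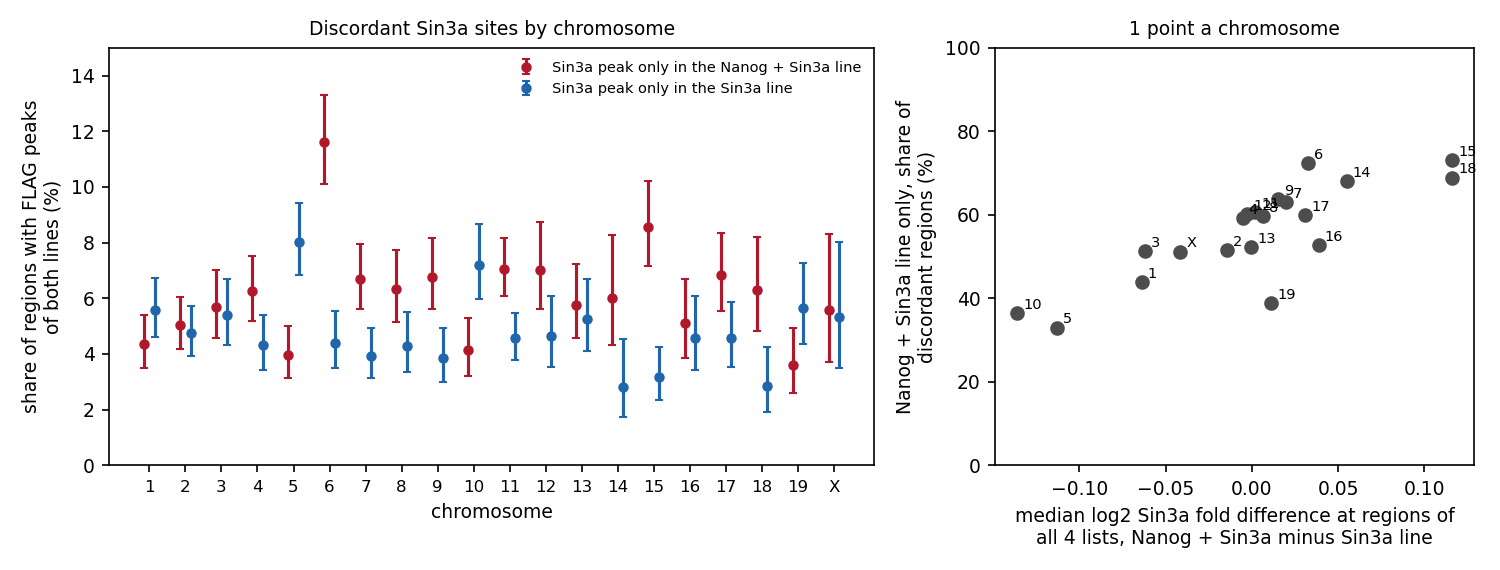
Left, share of the regions with FLAG peaks of both lines that had Sin3a only in the Nanog + Sin3a line or only in the Sin3a line, by chromosome, with 95% Wilson intervals. Right, the former as a share of both, against the median log2 Sin3a fold difference at regions of all 4 lists, 1 point a chromosome; chromosome 6 stands highest on the left at 11.6%, and chromosomes 5 and 10 lie lowest on the right.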

How the data were processed

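Sin3a and FLAG ChIP-seq was deposited as 1 peak list for each of 4 groups, without a header. Per the submitters' processing notes, FastQC 0.10.1, Bowtie 1.0.0 and SAMtools 0.1.19 and build mm9 were used, in roles that the notes leave unstated. Not given in the sources used here: peak caller, pooling of replicates and total reads. Input and IgG were not analysed here.

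The deposited fold is a ratio at the summit, the deposited −log10 p and −log10 q are the authors' values, and the deposited score equals 10 times the −log10 q without decimals in 100% of peaks. These were used only to describe or rank peaks. Whole fragment numbers were recovered for 98.0 to 99.8% of the peaks of each list from fold and −log10 p, with a tolerance of 0.02 fragments. The recovery assumed a Poisson tail for the p-value, a scaled fragment count, and 1 added to count and background in the fold. Inferred in this way, ChIP tags per control tag were 1.43 and 1.30 for Sin3a (Sin3a, Nanog + Sin3a line) and 1.15 and 1.37 for FLAG (Nanog, Nanog + Sin3a line). Where a region held several peaks of a list, the one with the highest −log10 q was used. Coordinates are 1-based.

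Members and lists were chosen with earlier results of these data known. Regions named were the 12 with the highest Sin3a −log10 q, the 6 with the highest summed FLAG −log10 q, the 4 with the lowest Sin3a −log10 q and the 4 of the opposite class with the highest Sin3a −log10 q, and others named were chosen after their values were seen. Shares carry Wilson, differences Newcombe, medians order-statistic and fragments exact Poisson intervals. The gene and promoter tables used here are of GRCm38, so no gene or sequence was assigned, and the planned gene and motif counts were not run. SciPy 1.17.1, NumPy 2.4.6, Matplotlib 3.10.9 and pandas 2.3.3 were used under Python 3.11.15, and the code was tested on simulated data.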

Additional observations from a re-analysis of the deposited data

How the results depend on the processing

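No paired analysis was possible because the replicates of a group are not listed apart, and leave-one-out values were not run for the same reason. Windows at gene starts and sequence content were not run, for want of an mm9 reference. Peak lists end at a threshold, and depth limits what lies just below it. Equal top numbers were 17168 Sin3a and 36286 FLAG peaks. The settings without parts of chromosome 6 or without chromosomes 5, 6, 10 and 15 alone were added after the data were seen. Beyond fewer peaks or sites under stricter settings, the cause of a shift was not tested.

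The number of regions (1669) was 1107 and 546 at a −log10 q of at least 5 and 10 in all lists, and 725 and 79 when only the Sin3a list of the line with both transgenes was limited in this way. In the same order of these 4 settings, the share of FLAG regions (6.17%) was 4.96, 4.15, 2.68 and 0.292%, the share of disagreeing regions (56%) was 48.7, 42.7, 22.5 and 1.44%, and the median Sin3a −log10 q (4.92) was 6.87, 12.1, 6.71 and 11.1. Limiting 1 list alone moves regions into the opposite class by construction. With summits within 200 bp these values were 7.21%, 50.7% and 5.59. With equal numbers of top peaks they were 5.25%, 47.4% and 5.28. The Sin3a list of the Sin3a line stayed whole there, so regions moved into the opposite class by construction too. With no Sin3a peak of the Sin3a line within 1 kb the share of FLAG regions was 5.01%, and it was 5.86% without the segments of chromosome 6, with or without chromosomes X and 14.

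The median FLAG log2 difference (-0.13) kept its sign under each setting, at -0.165 by summits, -0.163 and -0.172 with all lists limited at 5 and 10, and -0.103 (-0.259 to 0.0116) at 10 in the Sin3a list alone. The median summit distance (79 bp) was 67 bp by summits, and 66 and 45 bp with the Sin3a list at 5 and 10. The share within 10 kb of a Sin3a peak of the Sin3a line (50.8%) was 63.8% by summits, 39.5% with none within 1 kb, 44.8 and 30.6% at 5 and 10 in all lists, and 45.6% at 10 in the Sin3a list. The median width (540 bp) was 571 bp by summits, and 634 and 846 bp at 5 and 10 in all lists. The share on chromosome 6 (10.5%) was 8.97% at 10 in all lists, 12.4 and 25.3% with the Sin3a list at 5 and 10, 4.36% without its segments and 4.52% also without chromosomes X and 14. Of the other values of these results, 53 stayed within the main interval or, for the number of regions, within 1.5 times it.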
